A study of Mus musculus with 151 samples.

Results

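The 50 P30_WT IHCs among the 151 sequenced hair cells were divided into an IEG-high group of 25 cells and an IEG-low group of 25 cells. Inner hair cells (IHCs) are the cochlear receptors that pass sound to the auditory nerve, and immediate-early genes (IEGs) are genes transcribed within minutes of a stimulus. The groups were chosen by measured values. For each cell, a score was taken as the mean of log2(CPM + 1) over *Fos*, *Fosb* and *Egr1*, where CPM is the gene's count scaled to a cell total of 1000000, and the 25 cells with the highest score formed the IEG-high group. The P30_WT IHCs came from C57BL/6 mice at postnatal day 30 with the genotype vGlut3-P2A-iCreER/+; Ai9/+. The iCreER is expressed from the *Slc17a8* (vGlut3) locus, and with tamoxifen given in the first days after birth it switches on Tdtomato in cells that use this locus. The 55 P14_WT IHCs, from mice of the same strain and genotype at postnatal day 14, and the 46 P14_iOHCs, called induced outer hair cells, from vGlut3-P2A-iCreER/+; Tbx2 flox/-; Ai9/+ mice of the same age, are used below only as 2 further sources of cells for the same division. All 3 kinds of cell therefore carry the iCreER knock-in and the reporter. The sensory epithelium was digested with papain, protease and dispase, and Tdtomato+ cells were picked by hand. No stimulus separates the groups, and the number of mice is not given in the sources used here.

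The proteins encoded by *Fos* and *Fosb* pair with Jun family proteins to form the transcription factor AP-1, and *Egr1* encodes a zinc finger transcription factor. Their genes lie silent or nearly so in many resting cells and are switched on through MAP kinases acting on the serum response factor and through calcium and cyclic AMP acting on CREB, without new protein synthesis. In excitable cells they are widely used as marks of recent activity, and they also respond to the enzymatic dissociation of tissue. These counts hold no record of when, relative to dissociation, the transcripts were made.

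Each library is 1 cell, the labels name no animal, and the groups were cut from the data themselves, so the cells are not replicates of a condition and no test was run. Differences are given by size alone. For each gene, the mean CPM of the high group was divided by that of the low group. Every pair of 1 high-group cell with 1 low-group cell was also examined. The percentage of these pairs in which the high-group cell had the higher CPM is called the pair share here, with a tied pair counted equally to both sides, so that 50% means no difference in rank. A gene was called higher when its ratio was at least 2-fold and its pair share at least 75%, and lower when the ratio was at most 0.5 and the pair share at most 25%. The values of *Fos*, *Fosb* and *Egr1* only describe how the groups were made. All intervals for shares of cells are 95% Clopper-Pearson intervals. They treat the cells as independent draws, and they cover neither the choice of cells by score nor differences between animals. The reads carry no molecular identifiers.

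The library totals of the 50 cells fell into 2 separate sets, and the groups were unequally spread over them. In the lower set, 23 cells had between 5692841 and 9484663 counts. In the upper set, 27 cells had between 13282457 and 25035444 counts, and no total lay in between. The labels number these cells from 1 to 50, and the lower set holds exactly the cells numbered up to 23. Of the 25 high-group cells, 20 (80%) were in the lower set, against 3 (12%) of the 25 low-group cells. The median total was 8330277 in the high group and 15854843 in the low group, a ratio of 0.525. A count of 3 in a cell stood for 0.12 to 0.49 CPM in the high group and for 0.12 to 0.53 CPM in the low group. The share of counts on genes of the mitochondrial genome ran from 4.51% over a median of 10.9% to 37.6% in the high group, and from 5.05% over a median of 6.69% to 14.4% in the low group. The number of genes with at least 1 count was similar at the median, 8229 and 8170, but reached 15135 in a high-group cell and no more than 10203 in the low group. The cell with the highest mitochondrial share also had the fewest genes, 6213. What these sets stand for (a plate, a sequencing run, a litter or something else) is not given in the sources used here. Whether the set or the IEG level goes with a difference between the groups cannot be told apart over all 50 cells, so values inside the sets are given below beside those over all cells.

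**Figure D1:**
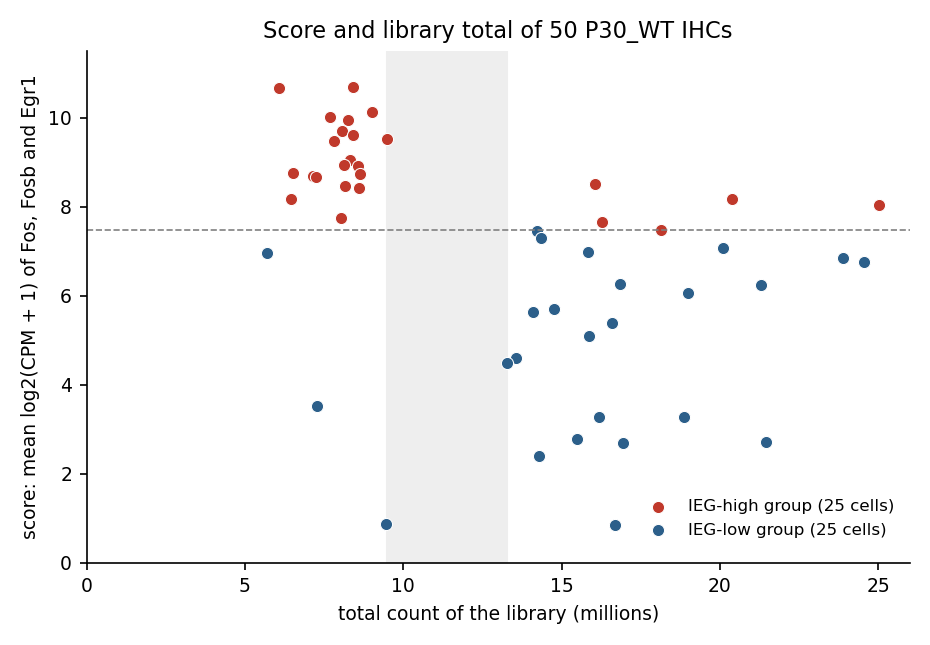
Score of each of the 50 P30_WT IHCs, the mean log2(CPM + 1) of *Fos*, *Fosb* and *Egr1*, against the total count of its library, with the IEG-high group in red, the IEG-low group in blue, the dashed line at the cut and the grey band over the range of totals that no cell has. The 23 cells of the lower set run from 0.86 over a median of 8.91 to 10.69, and 20 of them are in the high group. The 27 cells of the upper set run from 0.84 over a median of 6.07 to 8.51.

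The score varied widely among cells of 1 type and age. In the high group it ran from 7.48 over a median of 8.76 to 10.69, and in the low group from 0.84 over a median of 5.38 to 7.46. The cut falls in a continuous stretch: the last cell inside the high group scored 7.48 and the first outside it 7.46. *Fos* was between 142 and 3700 CPM in the high group, with a median of 1024, and between 0 and 1400 CPM in the low group, with a median of 143. *Fosb* was between 20.3 and 880 CPM, median 187, in the high group and between 0 and 76.9 CPM, median 1.80, in the low group, where 8 of the 25 cells had no *Fosb* count. *Egr1* ran from 195 to 3210 CPM, median 1299, and from 0 to 1363 CPM, median 108. The least of the scores were those of cell 37, with 0.66 CPM of *Fos*, 1.80 of *Fosb* and 0.24 of *Egr1*, and cell 11, with 0.85, 0.32 and 1.48 CPM. Even so, 24 of the 25 low-group cells had at least 1 *Fos* count and 23 had at least 1 *Egr1* count, so the low group is a range of levels and not a group without these transcripts.

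The 3 score genes varied together over the 50 cells, with a Spearman rho of 0.61 between *Fos* and *Fosb*, 0.69 between *Fos* and *Egr1* and 0.61 between *Fosb* and *Egr1*. The cells of a set share whatever separates the sets. Within the lower set (n = 23 cells) the 3 values were 0.38, 0.38 and 0.49, and within the upper set (n = 27 cells) they were 0.38, 0.20 and 0.39, each smaller than over all cells. *Fos* had a median of 1181 CPM in the lower set, with a range from 0.85 to 3700, and of 176 CPM in the upper set, with a range from 0 to 888. The Spearman rho between the score and the library total was −0.55 over all 50 cells but 0.17 within the lower and 0.23 within the upper set, so the negative relation was between the sets and not inside either of them. The Spearman rho between the score and the mitochondrial share was likewise 0.55 over all cells, 0.15 in the lower and −0.16 in the upper set.

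The promoters of 2 score genes and of 2 other IEGs, *Jun* and *Klf6*, are printed first. They were chosen because they carry letters through which CREB and its relatives are known to act. The promoters of *Egr1*, *Junb*, *Ier2* and *Jund* are not printed, and whether they carry these letters is not given here. Each run holds the 150 bases before the start of transcription in RefSeq on build GRCm38.p6. In *Fos* (chr12:85473740-85473889, plus strand) and *Fosb* (chr7:19310046-19310195, minus strand) the capitals mark TGACG, the core of the cyclic AMP response element, which in *Fos* begins 129 and 66 bases before the start and in *Fosb* 60 bases before it. In *Jun* (chr4:95052223-95052372, minus strand) and *Klf6* (chr13:5861339-5861488, plus strand) the capitals mark the variant element TGACATCA, 45 and 119 bases before the start.
*Fos*: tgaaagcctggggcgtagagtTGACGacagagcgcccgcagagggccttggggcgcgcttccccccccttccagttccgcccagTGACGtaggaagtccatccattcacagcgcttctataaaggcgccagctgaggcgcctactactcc
*Fosb*: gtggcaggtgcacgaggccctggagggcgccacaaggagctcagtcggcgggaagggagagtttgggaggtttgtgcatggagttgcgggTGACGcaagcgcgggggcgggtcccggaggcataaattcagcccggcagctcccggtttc
*Jun*: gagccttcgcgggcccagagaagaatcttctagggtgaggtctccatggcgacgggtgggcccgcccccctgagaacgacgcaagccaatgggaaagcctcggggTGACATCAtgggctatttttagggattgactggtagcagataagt
*Klf6*: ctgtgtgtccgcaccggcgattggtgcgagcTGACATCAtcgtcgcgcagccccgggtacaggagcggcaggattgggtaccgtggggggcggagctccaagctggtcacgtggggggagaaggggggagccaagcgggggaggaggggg

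Over the 250 bases before the start and on both strands, TGACG was present in 33 of 64 promoters (51.6%), which belong to 47 of the 60 listed IEGs and 3 score genes, and in 17.8% of 32851 mouse promoters. The whole element TGACGTCA, which contains these letters, was present in 5 of the 64 (7.81%) and in 1.55% of all. TGACATCA was present in 5 of the 64 (7.81%) and in 2.93% of all. The EGR motif GCGNGGGCG was found in 15 of the 64 (23.4%) and in 4.70% of all, and a copy of it begins 50 bases before the start of *Fosb*. The CArG box, bound by the serum response factor, was found in 7 of the 64 (10.9%) and in 1.47% of all, whereas the AP-1 motif TGANTCA was found in 3 of the 64 (4.69%) and in 6.75% of all. Some of the 47 genes have more than 1 promoter here. The 33 promoters with TGACG belong to 27 genes and the 7 with a CArG box to 4 genes. For the other motifs each promoter found was of a different gene. These counts describe letters in the promoters of listed genes and not binding in these cells.

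Of 10167 genes with 5 or more counts in 10 or more of the 50 cells, the score genes left out, 49 (0.482%) were higher and 118 (1.16%) were lower in the IEG-high group. These shares are so small that a short list with no gene called does not differ from the tested genes as a whole. In 4483 of the 10167 genes the mean was higher in the high group, and the median log2 ratio over all of them was −0.09, so the median gene differed little between the groups.

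The IEGs outside the score were followed in 2 lists, one of transcription factors and one of effectors such as phosphatases, feedback inhibitors and secreted proteins. Of the 29 listed transcription factors, 14 passed the filter on counts, 3 were called higher, 0 were called lower, and 12 had the higher mean in the high group, with a median log2 ratio of 1.05. Of the 31 listed effectors, 16 passed the filter, none was called in either direction, and 8 had the higher mean, with a median log2 ratio of 0.04. The 30 tested IEGs together had a median log2 ratio of 0.49 and a median pair share of 58.0%, beside −0.09 and 49.9% for all tested genes. The other 30 listed IEGs did not reach 5 counts in 10 cells. *Egr2*, *Egr3*, *Egr4*, *Fosl1* and *Npas4*, an activity-dependent factor of neurons, were at 1.17 CPM or less in every one of the 50 cells, and the phosphatase gene *Dusp5* had no count in any.

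The 3 IEGs called higher were *Jun*, *Junb* and *Ier2*. *Jun* (ENSMUSG00000052684.4, chromosome 4 of mm10, 95049034 to 95052222, minus strand) encodes the main partner of Fos in AP-1. It was between 548 and 2688 CPM in the high group, with a median of 1286, and between 0.95 and 1503 CPM in the low group, with a median of 558. The groups overlapped, but the lowest high-group cell was close to the median of the low group. The mean was 2.29 times higher in the high group and the pair share was 85.9%. *Junb* (ENSMUSG00000052837.6, chromosome 8, 84974484 to 84978718), the gene of another AP-1 subunit, ran from 0 over a median of 287 to 644 CPM in the high group and from 0 over a median of 54.3 to 497 CPM in the low group. Its mean ratio was 2.77 and its pair share 75.9%, just inside the limit, and each group had 22 cells with a count. *Ier2* (ENSMUSG00000053560.4, chromosome 8, 84661331 to 84662852), which encodes a nuclear protein induced by growth factors, ran from 0 over a median of 76.0 to 537 CPM in the high group and from 0 over a median of 0 to 276 CPM in the low group. It differed in how often it was seen at all, with a count in 22 of 25 cells (88.0%, 68.8% to 97.5%) against 10 of 25 (40%, 21.1% to 61.3%). Its mean was 4.02 times higher in the high group and its pair share was 80.4%.

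Several IEGs stood just outside the limits. *Btg2*, an antiproliferative gene that p53 and growth factors induce, was between 56.2 and 846 CPM in the high group, median 514, and between 0 and 647 CPM in the low group, median 247, with a pair share of 80.2% at a ratio of 1.93. It passes the rule when CPM is scaled by edgeR's TMM factors or DESeq2's size factors, with a log2 ratio of 1.04 and 1.11. *Jund*, the other Jun gene, ran from 38.2 over 76.4 to 184 CPM and from 14.4 over 53.4 to 131 CPM, with a pair share of 74.9% at a ratio of 1.55. *Klf6*, a zinc finger factor, ran from 0.13 over 74.7 to 607 CPM and from 0 over 6.75 to 154 CPM, with a ratio of 2.23 at a pair share of 69.9%. *Ccn1*, a secreted matrix protein, had a ratio of 1.99 and a pair share of 71.0%. *Atf3*, a stress-induced partner of Jun, had means of 59.2 and 4.43 CPM, a ratio of 13.4, with a pair share of 69.0%. It had a count in 13 of the 25 high-group cells, all of them in the lower set, where the median of the 20 high-group cells was 47.6 CPM, and in 6 of the 25 low-group cells. *Bdnf*, a neurotrophin and one of the 5 IEGs with the highest mean, was level, with medians of 289 and 307 CPM and a pair share of 58.6%. The orphan receptor genes *Nr4a1* and *Nr4a2* had pair shares of 41.4% and 42.3%.

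**Figure D2:**
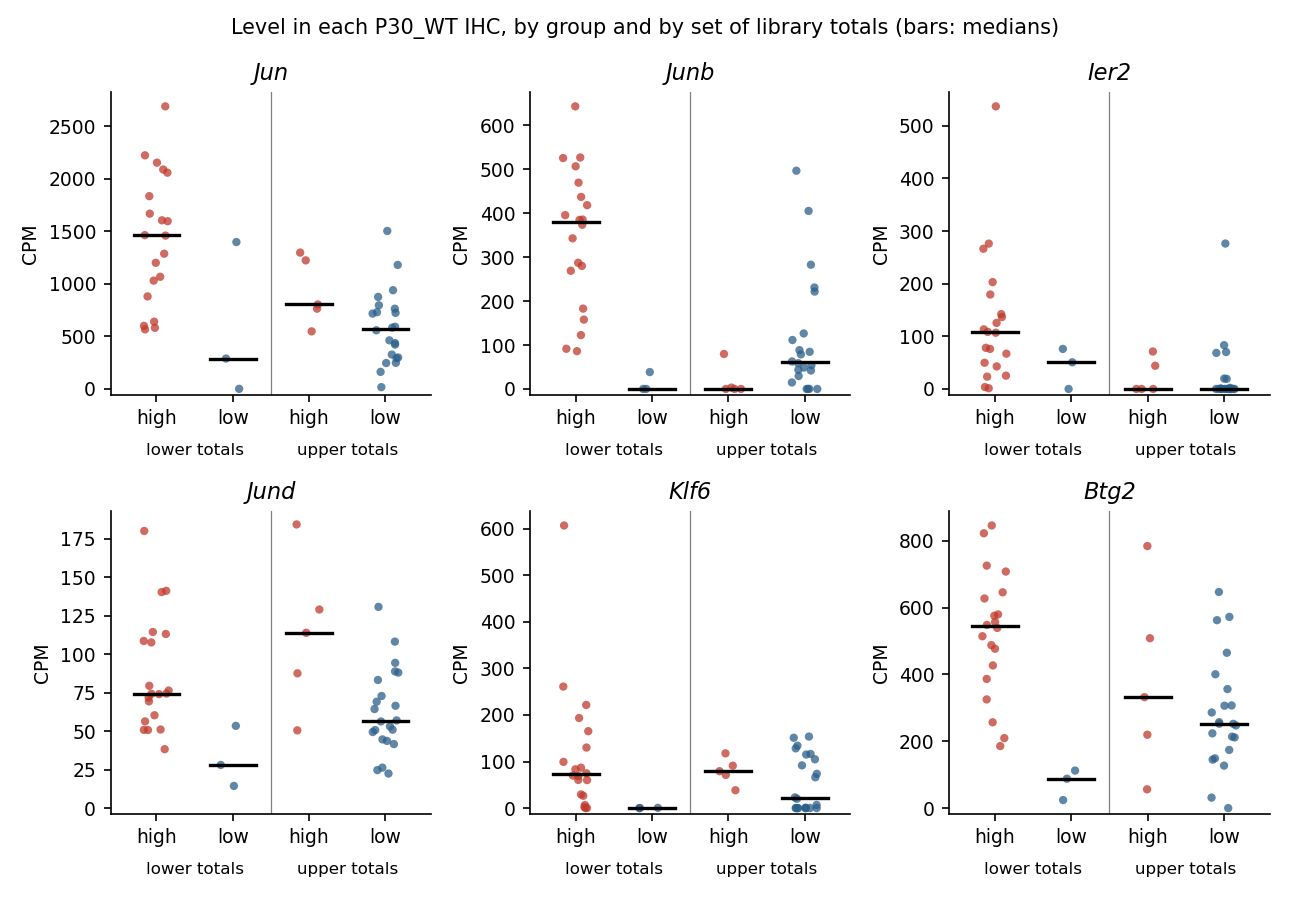
CPM of 6 IEGs that did not enter the score in each of the 50 P30_WT IHCs, each panel on its own linear axis, with cells split by set of library totals and by group and bars at the medians. *Junb* and *Ier2* have medians of 379 and 108 CPM in the 20 high-group cells of the lower set. Both are at 0 in 3 of the 5 high-group cells of the upper set. The 22 low-group cells there have medians of 60.6 CPM for *Junb* and 0 for *Ier2*, so *Junb* has the lower median in the high group of that set. *Jun*, *Jund*, *Klf6* and *Btg2* have the higher median in the high group of either set. In the lower set the low group holds only 3 cells, so its medians rest on few values.

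The 6 genes differed to unequal degrees between the sets of totals. When the lower set was compared with the upper set, whatever the score, the pair share (lower-set cell higher) was 86.4% for *Ier2*, 81.6% for *Junb*, 79.6% for *Jun*, 70.2% for *Btg2*, 57.7% for *Klf6* and 57.5% for *Jund*. For comparison inside the sets, each set was divided at its own median score and the middle cell of each was left out. This gave 11 high and 11 low cells in the lower set and 13 and 13 in the upper set. Pairs were formed only inside a set. The 11 low cells of the lower set were its 3 IEG-low cells and otherwise IEG-high cells. The 13 high cells of the upper set were its 5 IEG-high cells and otherwise IEG-low cells. Median scores were 9.69 and 8.41 in the lower set and 7.30 and 3.28 in the upper set. Values called inside the sets come from this division, which does not compare IEG-high with IEG-low cells as such. This division was chosen after the values were seen. *Jun* then had a pair share of 76.6% at a mean ratio of 1.74 (log2 ratio 0.80), *Jund* 74.1% at a log2 ratio of 0.65 and *Klf6* 71.0% at a log2 ratio of 1.21. *Btg2* had 58.6%, *Junb* 62.1% and *Ier2* 54.3%, the last with means of 77.6 and 60.7 CPM. *Ier2* was thus farther from 50% between the sets than inside them, while for *Jund* and *Klf6* it was the reverse. *Atf3* had a ratio of 15.8 and a pair share of 74.7% between the sets, and of 0.93 and 52.8% inside them. With the IEG groups kept, its median in the lower set was 47.6 CPM in the 20 high-group cells. The 3 low-group cells there had 0.70 CPM at most. In the upper set none of the 5 high-group cells and 5 of the 22 low-group cells had a count. *Ccn1* inside the sets had a ratio of 1.08 and a pair share of 52.8%, and *Bdnf* a pair share of 48.3%. *Nr4a1* and *Nr4a2* had pair shares of 40.3% and 31.3% between the sets and of 47.9% and 51.9% inside them, and both were above 50% in the upper set, at 58.6% and 64.2%.

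*Jun* in the lower set ran from 1067 over 1834 to 2688 CPM in the 11 cells with the higher scores and from 0.95 over 880 to 1596 CPM in the 11 with the lower scores. In the upper set it ran from 246 over 764 to 1297 CPM and from 17 over 583 to 1503 CPM. The pair share of *Jun* was 91.7% in the lower and 65.7% in the upper set, so the groups overlapped far more in the upper set. *Jund* had 80.2% and 69.8%, with medians of 76.4 and 53.4 CPM in the lower set and of 83.2 and 53.1 CPM in the upper set. *Klf6* had 67.8% and 73.4%, and in the upper set it had a count in 12 of 13 cells with the higher scores and in 9 of 13 with the lower ones. These 3 genes were on the same side in both sets, as were *Junb*, at 72.7% and 54.4%, and *Btg2*, at 60.3% and 57.4%. *Ier2*, at 47.1% and 59.5%, was not.

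Pooled over the 2 sets in this division, no listed IEG met the size rule. *Jun* met it in the lower set alone, at a ratio of 2.06 and a pair share of 91.7%. With the IEG-high and IEG-low groups kept, 13 IEGs were called higher in the lower set (20 against 3 cells). In the upper set (5 against 22 cells) 2 were. Of the 30 tested IEGs, 20 had the higher mean in the cells with the higher scores of their own set, the same number as over the 50 cells, and the median log2 ratio was 0.32 against 0.49. Over all 10167 genes the median log2 ratio inside the sets was −0.03, with 17 genes (0.167%) called higher and 4 (0.0393%) called lower. In these pooled values *Jun* missed the 2-fold limit, *Klf6* the limit of 75% and *Jund* both. Between the sets, lower over upper, 3 of the 30 IEGs were called higher and 0 lower, and 17 of the 30 had the higher mean, with a median log2 ratio of 0.20.

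The same division was made in the 2 kinds of cell that had no part in choosing the P30 groups. In the P14_WT IHCs the score ran from 5.6 over 7.40 to 9.47 in the 27 cells with the highest scores and from 0 over 3.44 to 5.38 in the 27 with the lowest, 1 middle cell being left out. Of 11168 genes tested there, 8 (0.0716%) were higher and 12 (0.107%) lower, and none of the 29 tested IEGs was among them. Their means nevertheless leaned one way, with 24 of the 29 higher and a median log2 ratio of 0.51, beside 0.00 over all genes. *Jund* had the highest pair share of the tested IEGs there, 84.0% at means of 83.4 and 44.2 CPM, a log2 ratio of 0.92 that missed the 2-fold limit. *Ccn1* followed at 77.6% and *Ier2* at 72.6%, while *Junb* was at 64.1%, *Klf6* at 62.1% and *Jun* at 60.1%. The order of the genes was thus unlike that in the P30_WT IHCs, where *Jun* was first. Of the P14_WT IHCs, 5 of the 27 high-score cells and 11 of the 27 low-score cells were in the lower totals, cut at the widest gap over the 151 cells, and the median totals were 15899435 and 14205936.

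In the P14_iOHCs, the score ran from 6.25 over 8.33 to 10.6 in the upper 23 cells and from 1.09 over 3.68 to 5.92 in the lower 23. Of 11157 genes, 298 (2.67%) were higher and 12 (0.108%) lower. Of 36 tested IEGs, 11 were higher, namely *Jun*, *Junb*, *Ier2*, *Ier5*, *Klf6*, *Btg2*, *Cebpb*, *Nr4a1* and the effectors *Dusp1*, *Zfp36* and *Zfp36l1*. The median log2 ratio of the 36 was 1.28, beside 0.06 over all genes. *Klf6* had means of 321 and 28 CPM, *Ier2* of 483 and 70.2 CPM, *Junb* of 466 and 102 CPM and *Jun* of 981 and 429 CPM. *Dusp1*, a phosphatase that switches MAP kinases off, had a pair share of 86.0%, against 60.0% in the P30_WT IHCs and 50.7% inside their sets. The upper 23 cells also had more counts, a median total of 18844405 against 14478073 with 3 against 9 cells in the lower totals, and more genes detected, a median of 9904 against 7318, and 6 of 17 tested supporting-cell markers were higher in them, with a median log2 ratio of 1.83. The part of these in the IEG values was not tested. Of the 49 genes called higher in the P30_WT IHCs, 46 could be tested in the P14_WT IHCs. Of these 46, 0 were called higher there, beside 0.0716% of all genes tested in those cells. In the P14_iOHCs 41 could be tested and 4 were called higher: *Jun*, *Junb*, *Ier2* and *Mafk*, the last of which encodes a small bZIP factor and was looked up after its value was seen. Over the genes that could be tested, 23 of 46 and 18 of 41 had the higher mean in the high-score cells.

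**Figure D3:**
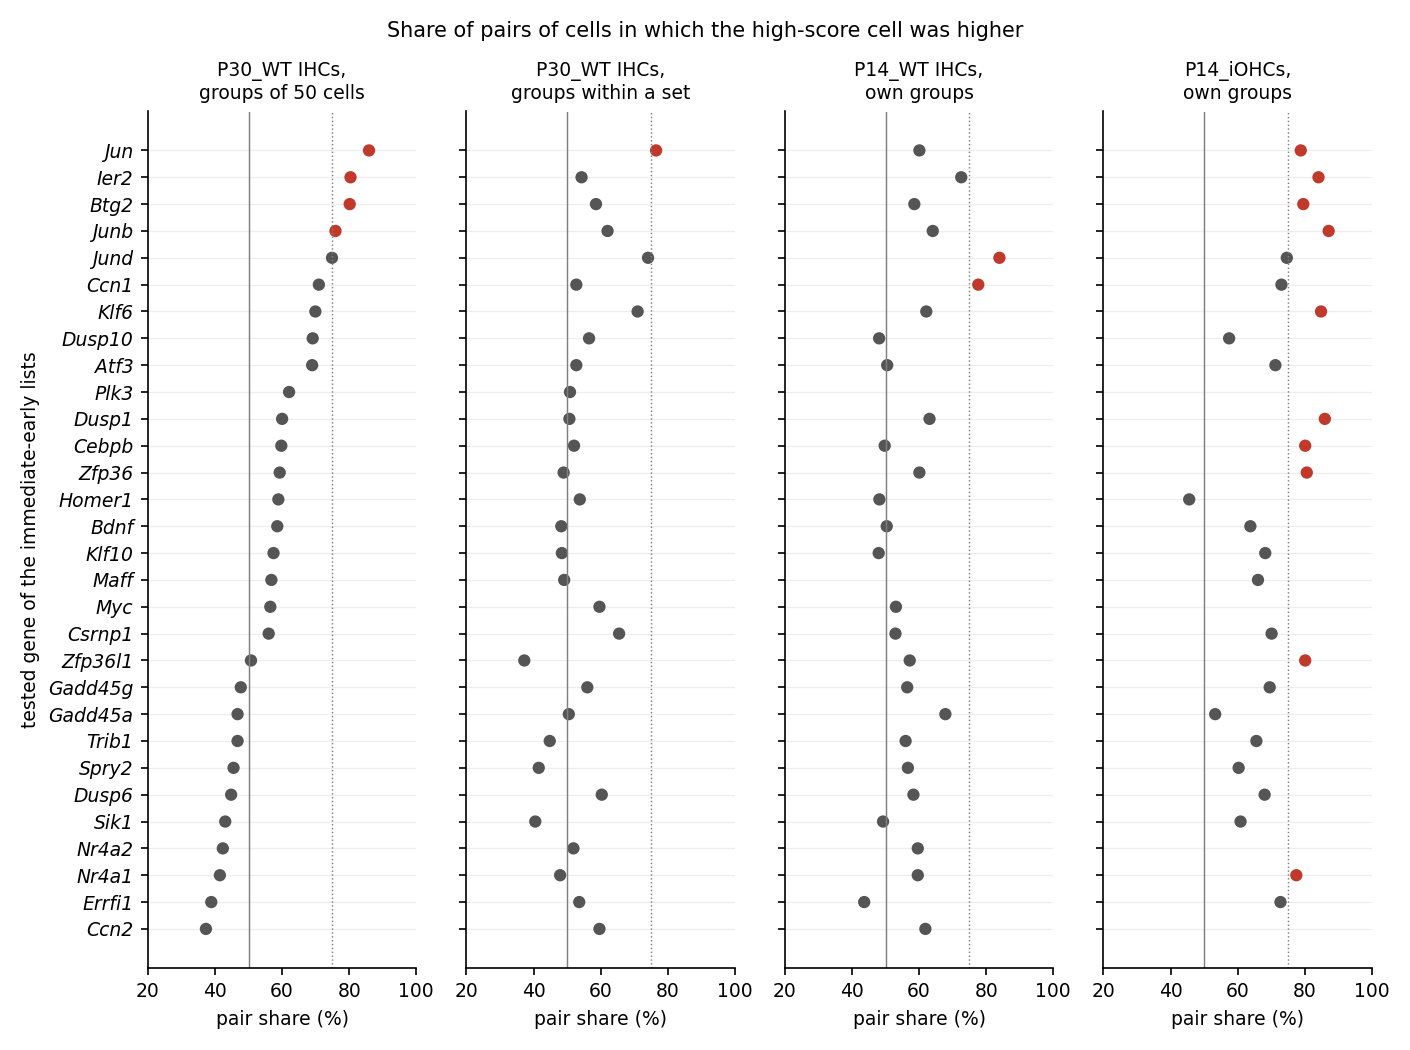
Pair shares of the 30 IEGs tested in the P30_WT IHCs, by gene, for the groups of all 50 cells, for groups cut within each set of totals, and for the P14_WT IHCs and P14_iOHCs divided by their own scores, with the solid line at 50%, the dotted line at 75% and red for genes at or past 75% whatever their ratio. *Jun* is the only gene at or past 75% in both P30 panels, 2 genes reach it in the P14_WT IHCs and 10 of the genes shown reach it in the P14_iOHCs. Genes without a point in a panel were not tested in that group.

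The listed signalling genes upstream of the IEGs did not meet the size rule between the P30 groups. The list held 26 genes of the MAP kinase, CREB and serum response factor routes. Of these, 22 were tested and none was called in either direction, with a median log2 ratio of −0.07. Over all tested genes 0.482% were called higher and 1.16% lower, so none in 22 is near the share over all genes. The MAP kinase route genes *Map2k4* and *Dusp8* are outside this list and were called higher. Their pair shares were 77.8% and 75.8%, or 64.7% and 55.2% inside the sets. Both were looked up after their values were seen. *Rps6ka2*, a ribosomal S6 kinase downstream of ERK, had medians of 637 and 500 CPM and a pair share of 58.9%, or 53.8% inside the sets, and *Camk2d*, a calcium-dependent kinase, had medians of 151 and 213 CPM and a pair share of 42.7%, or 49% inside the sets.

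Genes of other stress programmes were examined in the same cells. Of 12 tested genes of endoplasmic reticulum and integrated stress, 1 was called higher, and 11 had the higher mean in the high group. This was *Hspa5*, the chaperone BiP of the endoplasmic reticulum, which ran from 264 over 1783 to 4004 CPM in the high group and from 58.9 over 729 to 1949 CPM in the low group, 2.37 times higher by the mean with a pair share of 82.1%. Inside the sets its pair share was 69.0%, and in the P14_WT IHCs it was 40.5%. None of 15 tested cytosolic heat shock genes was called, and the abundant *Hspa8* and *Hsp90aa1* had pair shares of 65.1% and 65.6%, or 64.8% and 49.3% inside the sets. None was called among 3 tested inflammatory and NF-kB genes, 14 antioxidant and hypoxia genes, 7 p53 and growth arrest genes and 16 clock genes. With 0.482% of all tested genes called higher and 1.16% lower, lists this short can hold none without differing from the rest. Among their most abundant members, *Nfkbia* had a pair share of 52.6% and *Nfkb1* of 37.3%, *Sod1* of 40.2% and *Gpx1* of 38.6%, and *Ccng1* of 61.9% and *Zmat3* of 38.1%. Inside the sets these shares were 52.1% and 57.6%, 42.1% and 50.3%, and 50.2% and 42.1%, so that *Nfkb1* changed sides. The nuclear receptors *Rora* and *Rorb* had 32.3% and 56.8%, or 35.9% and 40.3% inside the sets. *Il6*, *Il1b*, *Cxcl2* and *Cxcl10* had no count in any of the 50 cells.

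Markers of the cell types were checked in both groups. All 50 cells had counts of *Slc17a8*, *Otof*, *Slc7a14* and *Calb2*, which mark IHCs. *Slc26a5*, the gene of the outer hair cell motor Prestin, had a count in 1 cell of each group, and *Ikzf2* had a count in 2 high-group and 3 low-group cells, at 0.24 CPM at most. Other outer hair cell markers were present, and the summed level of the list ran from 212 over 887 to 4114 CPM in the high group and from 166 over 387 to 2951 CPM in the low group. None of the 9 tested IHC markers met the size rule, yet several were shifted in rank. *Otof*, needed for release at the ribbon synapse, ran from 2176 over 3151 to 5359 CPM in the high group and from 2949 over 4015 to 7021 CPM in the low group, with a pair share of 19.7%. *Calb2*, the calcium buffer calretinin, had medians of 11369 and 16243 CPM and a pair share of 23%. *Slc17a8*, the vesicular glutamate transporter of IHCs, went the other way, with medians of 1585 and 1023 CPM and a pair share of 78.9%. Between the sets of totals the pair shares of these 3 genes were 19%, 14.8% and 85.0%, and inside them 43.1%, 54.8% and 55.2%. Whether these shifts go with the set or with the IEG level cannot be told apart over all 50 cells.

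*Kcna10*, a potassium channel of mature hair cells, kept its place inside the sets. It ran from 508 over 1490 to 2734 CPM in the high group and from 478 over 1121 to 1963 CPM in the low group, with a pair share of 77.3% at a ratio of 1.44, and inside the sets the pair share was 74.8%. In the P14_WT IHCs it was 28.4%. *Kcnab1* had 46.1%, or 36.6% inside the sets, and none of the 9 tested potassium channel genes met the rule.

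Among 17 tested ribbon synapse and calcium entry genes, *Cacna2d2*, an auxiliary subunit of calcium channels, was called higher, with medians of 25.4 and 1.25 CPM, a pair share of 77.3% and of 71.0% inside the sets. Among 19 tested general hair cell genes, *Fscn2*, a crosslinker of stereocilia actin, was called lower, with medians of 58.6 and 214 CPM, a pair share of 22.6% and of 37.2% inside the sets. The transcription factor gene *Pou4f3* and the myosin genes *Myo6* and *Myo7a* had pair shares of 50.4%, 62.6% and 59.2%, or 69.0%, 53.4% and 46.6% inside the sets. None of 13 tested genes of calcium buffers and pumps was called, and the calmodulin gene *Calm2* had a pair share of 34.4%, or 48.6% inside the sets.

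Transcripts of other cell types did not separate the groups by the size rule, which few tested genes met (0.482% higher and 1.16% lower). None of 6 tested outer hair cell markers was called, although *Ocm*, the calcium buffer oncomodulin, ran from 0 over 771 to 3866 CPM in the high group and from 0 over 86.1 to 2580 CPM in the low group. Its pair share was 70.6%, with 74.7% between the sets and 51.7% inside them. *Sri* was at 49.2%, or 39% inside the sets. None of 10 tested supporting-cell markers was called, and their summed level ran from 1002 over 5101 to 8801 CPM in the high group and from 2456 over 4597 to 8269 CPM in the low group. Most of this sum was *Fbxo2*, which hair cells also express. *Gjb6* had a median of 0.08 CPM in the high group and 0 in the low group, and *Epyc* and *Ngfr* had no count in any cell.

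Among 1 tested marker of glia, 3 of spiral ganglion neurons, 4 of fibroblasts and mesenchyme, 1 of endothelium and pericytes, 2 of blood and 1 of immune cells, none met the rule. Their summed medians in the high and low group were 14.4 and 0.99 CPM for the 8 glial genes, 428 and 389 CPM for the 11 neuronal genes and 84.6 and 87.7 CPM for the 9 fibroblast genes. For the 8 endothelial, 6 blood and 10 immune genes they were 0.12 and 0.05, 6.49 and 7.27, and 0.13 and 0 CPM. *Mag*, *Prph*, *Pou3f4*, *Cldn5*, *Cx3cr1*, *C1qa* and *Tyrobp* had no count in any cell. *Cnp* was the tested glial gene, with a pair share of 61.2% and of 48.8% inside the sets. *Snap25* and *Nefl*, which hair cells can also express, had 54.1% and 55.5%, *Pdgfra* and *Lum* 53.8% and 52.1%, *Pecam1* 47.9%, *Hba-a2* and *Hba-a1* 43.8% and 51.3%, and *Cd68* 58.7%. Inside the sets these 8 shares were 62.1%, 41%, 51.2%, 47.8%, 62.4%, 52.1%, 58.4% and 50%, in the same order. *Kdr* and *C1qb* did not pass the filter on counts.

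Cells of both sexes were in both groups. *Xist* exceeded 1 CPM in 16 high-group and 17 low-group cells, and the Y-linked genes did so in 9 and 9, with 1 cell of each group counted in both. In the lower set 11 cells had *Xist* and 12 the Y-linked genes, against 22 and 6 in the upper set. *Xist* had a pair share of 56.6% and *Eif2s3y* of 51% between the groups, or 65.5% and 36% inside the sets, and none of 4 tested sex-linked genes was called.

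The genes with the largest shift in rank outside the IEG lists were examined by the same rule. Among the 10 higher ones were 2 histone genes, 2 mitochondrial genes and 2 processed pseudogenes. The pseudogene *Gm15459* (chromosome 5, 5781615 to 5783555) ran from 12.6 over 679 to 1154 CPM in the high group and from 8.89 over 17.1 to 672 CPM in the low group, with a pair share of 88.2%. Between the sets its pair share was 100%, so that no cell of the upper set reached any cell of the lower set, and inside the sets it was 61.4%. *H1f2*, a linker histone gene, had medians of 450 and 112 CPM and a pair share of 87.0%, which inside the sets was 53.1%. *H2bc6*, a core histone gene, had medians of 57.0 and 2.01 CPM and 82.7%, or 55.5% inside the sets. Of 36 tested histone genes, 5 were called higher under each scaling tried, beside 0.482% of all tested genes when scaled by library totals. The other 3 were *H4c9*, *Hist1h2bq* and *Hist1h2br*. Inside the sets no histone gene was called, beside 0.167% of all tested genes called higher, and the median log2 ratio was −0.08. Histone genes are near copies of one another, and how reads shared between them were counted is not given in the sources used here.

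*mt-Nd2*, a subunit of respiratory complex I encoded by the mitochondrial genome, ran from 3318 over 10332 to 40540 CPM in the high group and from 3388 over 4484 to 15236 CPM in the low group, with a pair share of 85.8%. *mt-Nd3* had medians of 128 and 54.4 CPM and 84.8%. Between the sets the shares were 100% and 99.0%, and inside them 51% and 57.6%. Of the 13 genes of the mitochondrial genome, 11 had the higher mean in the high group, with a median log2 ratio of 0.56 and a median pair share of 79.4%, which inside the sets was 50.3%. However, *mt-Nd4l* and *mt-Atp8* were called lower, with pair shares of 22.8% and 15.7%, and these too were at 61.0% and 49.3% inside the sets. With the mitochondrial genes left out of the totals, and with the TMM or DESeq2 factors, 2 of the 13 were again called higher and 2 lower.

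*Hspa5*, described above, was among the 10, and the other 4 kept between 48.3% and 67.9% inside the sets. *Elovl4*, an elongase of very long chain fatty acids, had medians of 110 and 19.8 CPM, a pair share of 82.1% and of 67.9% inside the sets. *Gpr3*, a receptor that raises cyclic AMP without a ligand, had medians of 24.4 and 0.28 CPM, a count in 24 and 16 cells, and a pair share of 83.3%, which inside the sets was 52.9%. *Ap1ar*, an adaptor protein gene, had medians of 60.8 and 0.28 CPM and 81.9%, or 60.0% inside the sets. The pseudogene *Gm7964* had medians of 11.6 and 1.26 CPM and 84.2%, or 48.3% inside the sets.

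The 10 lower ones held 5 pseudogenes. *Ndufb9*, a nuclear subunit of respiratory complex I, ran from 13.8 over 66.9 to 247 CPM in the high group and from 85.4 over 225 to 393 CPM in the low group, with a pair share of 6.24%, the farthest from 50% among the genes named for the groups. *Cox17*, a copper chaperone of cytochrome oxidase, had a count in 6 of 25 high-group cells (24%, 9.36% to 45.1%) and in 22 of 25 low-group cells (88.0%, 68.8% to 97.5%), and a pair share of 10.6%. *Usp50*, *Phpt1* (a histidine phosphatase) and *Pcp4* (a regulator of calmodulin) had pair shares of 9.28%, 12.0% and 13.1%, and the pseudogenes *Gm8129*, *Gm7308*, *Gm13339*, *Gm11966* and *Gm12988* lay between 11.4% and 13.2%. *Pcp4* was abundant, with medians of 640 and 1813 CPM. Between the sets the pair shares of these 10 genes were between 0% and 5.64%, so that nearly every lower-set cell was under every upper-set cell. Inside the sets they ran from 29.7% for *Gm11966* to 53.3% for *Gm7308*.

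The lower genes were shorter than the tested genes as a whole, and more of them were processed pseudogenes. Of the 118, 111 were found by symbol in GENCODE release M21, and their median length of merged exons was 1004 bases, against 4340.5 bases over 9976 tested genes and 3150 bases over 46 of the 49 higher genes. Exons under 1000 bases in all were found in 48.6% of the lower genes and in 7.07% of the tested genes. Processed pseudogenes made up 44.1% of the lower genes, 10.9% of the higher genes and 4.06% of the tested genes. Reads of a processed pseudogene and of its parent gene are alike, so their counts are uncertain. The 268 genes that were lower in the lower set of totals than in the upper set had nearly the same makeup, with a median exon length of 999 bases and 42.6% processed pseudogenes.

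Genes of the nuclear respiratory chain and the cytosolic ribosome leaned the same way. Of 75 tested nuclear respiratory chain genes 2, *Ndufb9* and *Ndufb2*, were lower and 0 higher, and 8 had the higher mean in the high group, with a median log2 ratio of −0.35. Of 82 tested ribosomal protein genes 2, *Rpl23a* and *Rpl35*, were lower and 0 higher, and 11 had the higher mean, with a median log2 ratio of −0.30. Inside the sets the medians were −0.09 and −0.19, with none called.

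Of the 49 higher genes, 29 were called higher also in the lower set over the upper set, a comparison that called 63 genes higher (0.62%) and 268 lower (2.64%), and all 49 had the higher mean there. Of the 118 lower genes, 98 were called lower there and all 118 had the lower mean. The comparisons share all 50 cells, and most high-group cells are lower-set cells. Inside the sets, where 0.167% of all tested genes were called higher and 0.0393% lower, none of the 49 and none of the 118 was called the same way. With so few genes called inside the sets, this says little about the 49 and the 118. In direction, 37 of the 49 and 81 of the 118 were unchanged inside the sets, with median pair shares of 59.5% and 45.3%. Only *Jun* kept a pair share of at least 75% there among the 49, and only *2510002D24Rik*, singled out after its values were seen, kept one of at most 25% among the 118. *2510002D24Rik* had medians of 168 and 305 CPM in the high and low group, and a pair share of 17.6% that was 20.3% inside the sets, at a log2 ratio of −0.82.

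**Figure D4:**
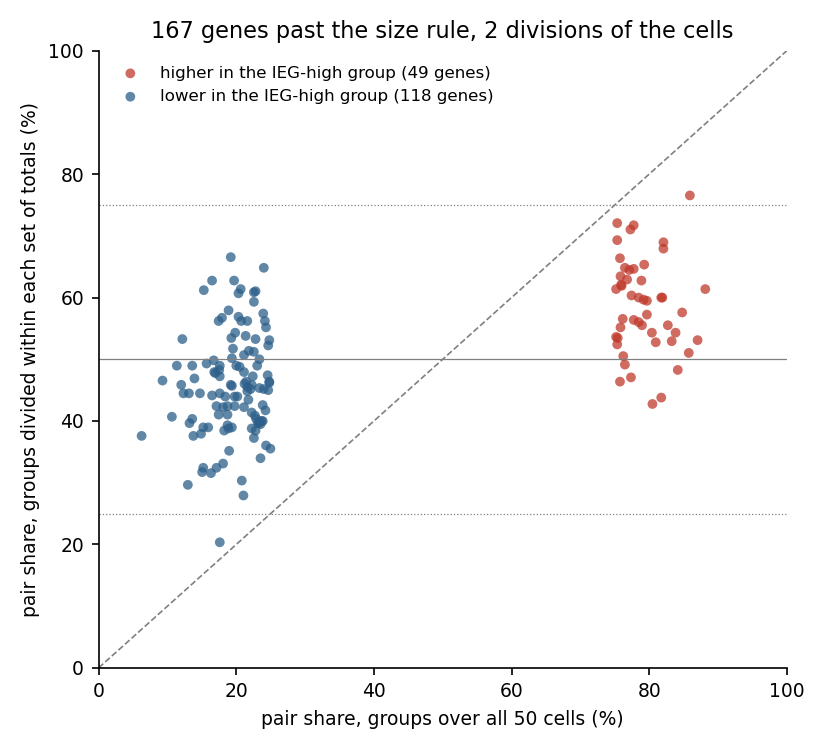
Pair share inside the sets of totals against pair share over all 50 cells for the 49 genes called higher (red) and the 118 called lower (blue), both in percent, with the dashed line where the values are equal, the solid line at 50% and dotted lines at 25% and 75%. Every gene lies nearer to 50% inside the sets than over all 50 cells, and the medians inside the sets are 59.5% for the higher and 45.3% for the lower genes. The genes were chosen by their pair share over all 50 cells, so shares nearer to 50% in another division are expected from that choice.

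The 17 genes higher inside the sets held no listed IEG, no heat shock gene and no listed hair cell gene. Among them, by values already seen, were *Siah1a*, a ubiquitin ligase, with a pair share of 76.9% inside the sets and 74.8% over all 50 cells, *Glg1*, a Golgi protein, with 76.0% and 68.6%, and *Klf12*, a zinc finger repressor, with 75.9% and 63.5%. The 4 genes lower inside the sets were *Aak1*, a kinase of clathrin adaptors, *Cdk4*, a kinase of the cell cycle, *Lmo4*, a LIM domain factor, and *Rrnad1*, with pair shares of 17.2%, 24.8%, 23.1% and 22.8%. Over all 50 cells these were 38.6%, 37.3%, 43% and 41.7%.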

How the data were processed

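Single hair cells were amplified with a Smart-Seq HT kit by the authors, who per the processing notes used FastQC 0.11.9, Trimmomatic 0.39, HISAT2 2.1.0 on mm10, StringTie 1.3.5 and HTSeq 0.10.0. The values deposited by the authors are raw counts per gene, whole numbers without normalization, for 55291 genes in 1 file. For the gene annotation, strand setting and multi-mapped reads, the choices made are not given in the sources used here. All columns matched a label (0 unused), and no libraries were identical among 1225 pairs of P30_WT IHCs.

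Each cell's deposited counts were divided by their total to give CPM. Pair shares and mean ratios were computed in Python 3.11.15 with numpy 2.4.6, pandas 2.3.3 and scipy 1.17.1 and drawn with matplotlib 3.10.9. edgeR 4.0.16 and DESeq2 1.42.0 (R 4.3.3) gave TMM and size factors for alternative scalings only, and the scripts were checked on simulated data. Totals ran from 5692841 to 25035444 counts, so 3 counts stood for 0.12 to 0.53 CPM, the precision at the low end. Cells of the P14 groups were filtered, scored and divided in the same way. Gene positions and lengths are from GENCODE M21 and promoters from RefSeq.

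The members, the gene lists and the comparisons were chosen with earlier results of these data known. The lists of ribosomal protein, respiratory chain and histone genes were drawn by symbol after the values were seen. Named are the score genes, listed IEGs past the size rule and the 5 with the highest mean CPM, the 10 genes per direction outside these lists with the pair share farthest from 50% and a count in at least 80% of cells of the higher group, and from each other list the genes past the rule or else the 2 with the highest mean CPM. Other genes were chosen after their values were seen. These were *Jund*, *Klf6*, *Atf3*, *Nr4a1*, *Nr4a2* and the other IEGs given, and *Mafk*, *Map2k4* and *Dusp8*. They also included remaining marker genes and genes called inside the sets or in the P14 cells. Alternatives were other scalings, filters, thresholds, scores, cell numbers and thinned counts, and groups divided inside each set of totals. A few genes that the naming rule covers are not reported here.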

Additional observations from a re-analysis of the deposited data

How the results depend on the processing

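Counts of genes higher and lower in the IEG-high group (49 and 118) depended most on which cells were compared. With looser limits (1.5-fold and 70% of pairs) they were 205 and 349, and with the top and bottom 17 cells 142 and 248. In the lower set alone, 20 against 3 cells, they were 996 and 568, with 13 IEGs called and a median IEG log2 ratio of 1.76. In the upper set alone, 5 against 22 cells, they were 250 and 249. With pairs counted only inside a set, 46 genes were higher and 38 lower, of which 16 were among the 49 and 15 among the 118. With a score of *Fosb* alone they were 18 and 28, with 1 IEG. Scores of *Fos* or *Egr1* alone gave 36 and 34 higher genes, of which 22 and 19 were among the 49, and 107 and 83 lower genes, of which 70 and 53 were among the 118. With the groups divided inside each set, added after the data were seen, they were 17 and 4, with 0 IEGs and a ratio of median totals of 1.06 in place of 0.525. Looser limits gave 6 IEGs, 4 higher genes shared with the P14_WT IHCs (1 with the P14 limits alone loosened) and 16 with the P14_iOHCs (8). All other alternatives left a count, or the median IEG ratio as a fold, within 1.5 times its value: 11 of 17 for higher genes, 10 for lower genes, 13 for IEGs, and 16 for the median IEG log2 ratio, between 0.22 and 0.70. The median log2 ratio over all genes was −0.09 by totals, −0.02 with TMM and 0.00 with DESeq2 factors, and the median of each gene list checked kept its sign. Without 8 cells with unusual numbers of genes, 29 of the 49 and 76 of the 118 were called again. No paired analysis was possible because the results come from no test and the shared cell numbers only name cells. Low counts limit the IEG lists, since 30 of 60 did not pass the filter.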
